A study of Mus musculus with 37 samples.

Results

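Mammary glands of female C57BL/6 mice that ate freely and had a running wheel (AL+EX, 9 mice) were compared with glands of mice that ate freely and had no wheel (AL, 10 mice). These 19 arrays are all the AL and AL+EX samples among the 37 of the series, chosen by their labelled diet and exercise; the other 18 come from calorie-restricted mice without (CR, 9 mice) and with (CR+EX, 9 mice) a wheel, whose intake was set at 70% of that of AL mice. All mice were 9 weeks old at the start and were followed for 6 weeks. From each mouse the left and right thoracic glands, about 60 mg each, were pooled, and their RNA was hybridised to 1 Affymetrix MOE430A array, a short-oligonucleotide array on which a gene is read by 1 or more probe sets. How far each mouse ran is not analysed here.

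Voluntary wheel running raises the energy used by mice without forcing them to work, and in fat it is known to draw on stored triglyceride through lipolysis. The adult virgin mammary gland is a thin tree of luminal and basal epithelial ducts embedded in a fat pad with vessels, fibroblasts and immune cells. The thoracic glands lie over chest muscle, and a dissected gland can carry muscle, brown fat or lymph node with it. In such bulk samples fewer cells of a type and less RNA per cell cannot be told apart.

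No gene passed the test for a difference between AL+EX and AL glands: 0 of 9294 (0%) reached an adjusted p below 0.05 (limma on log2(signal + 16), fitted over all 37 arrays, Benjamini-Hochberg), and the lowest adjusted p was 0.445. At an unadjusted p below 0.05, 276 genes (2.97%) were higher and 324 (3.49%) lower in AL+EX, together 600 (6.46%). No gene had AL and AL+EX arrays that failed to overlap (0 of 9294, 0%). Across all genes the AL+EX minus AL difference had a median of -0.015 on the log2 scale, with quartiles of -0.13 and 0.098. It was positive for 4326 genes and negative for 4968. These counts and the shares at an unadjusted p below 0.05 are the background for the counts of list members below. The 95% interval lay within 2-fold in both directions for 8904 genes (95.8%) and within 1.5-fold for 6879 (74.0%), so larger differences than those were outside the interval for these genes, one gene at a time. Estimates over 1.5-fold were 52 higher and 46 lower, and 2 genes exceeded 2-fold, both lower in AL+EX. These were Serpina3n, an acute phase protease inhibitor (-1.26 ± 0.42, SE; 227 to 913 (median 452) in AL and 27.9 to 678 (median 125) in AL+EX), and neuronatin (Nnat), an imprinted gene active in growing fat (-1.12 ± 0.68; 85.4 to 4996 (median 1099) and 11.3 to 2294 (median 386)); both were chosen after their values were seen, and their adjusted p in limma was 0.633 and 0.788. In all that follows an error beside a difference is its SE on the log2(signal + 16) scale, which understates the fold of dim genes.

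The arrays themselves differed by run and in B lymphocyte genes, in ways the groups did not follow. A sign of lower RNA integrity, in contrast, was seen on some AL arrays and on no AL+EX array. The animal numbers in the labels were cut here after every 24 numbers into 4 runs, each holding 2 or 3 mice of both groups. The labels do not mark these cuts. The runs accounted for 77.7% of the first principal component of the 19 arrays and 75.6% of the second. The group accounted for 0.658% and 0.707%. The labels do not say what a run stands for, and within every run the numbers go up in the order AL, AL+EX, CR, CR+EX, so that place in the run and group cannot be told apart. With run as a block the residual SD fell from 0.339 to 0.287, the genes at an unadjusted p below 0.05 numbered 1004 (10.8%; 429 higher, 575 lower), and still 0 of 9294 (0%) passed after adjustment, with a lowest adjusted p of 0.203. Arrays high in B lymphocyte genes were split 4 and 4 between AL and AL+EX. They include every array of run 4, so fits that leave them out also leave out run 4. The ratio of 3′ to 5′ Gapdh signal, a sign of RNA integrity, was above 2 on 3 AL arrays (replicates 1, 2 and 8: 2.74, 7.03 and 2.38) and at most 1.49 on AL+EX arrays. Replicates 1 and 2 are the only AL arrays of run 1, and replicate 8 is in run 3. In the by-run values below, group and a high ratio therefore cannot be told apart in run 1.

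Markers of the labelled tissue were present, with those of other tissues beside them. Adiponectin (Adipoq), the defining adipocyte hormone, read 13959 to 30960.3 (median 17769) in AL, and the luminal keratin Krt18 read 963 to 5976 (median 4417). Skeletal muscle actin Acta1 had a lowest signal of 14752 in AL and 17009.6 in AL+EX, and the brown fat uncoupler Ucp1 of 1211 and 5634, so all 19 arrays held muscle and brown fat transcripts. Krt18 was far lower on 1 array of each group, AL replicate 9 (963) and AL+EX replicate 8 (940), than on the rest. The receptors Esr1 and Pgr were too dim to be tested.

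**Figure D1:**
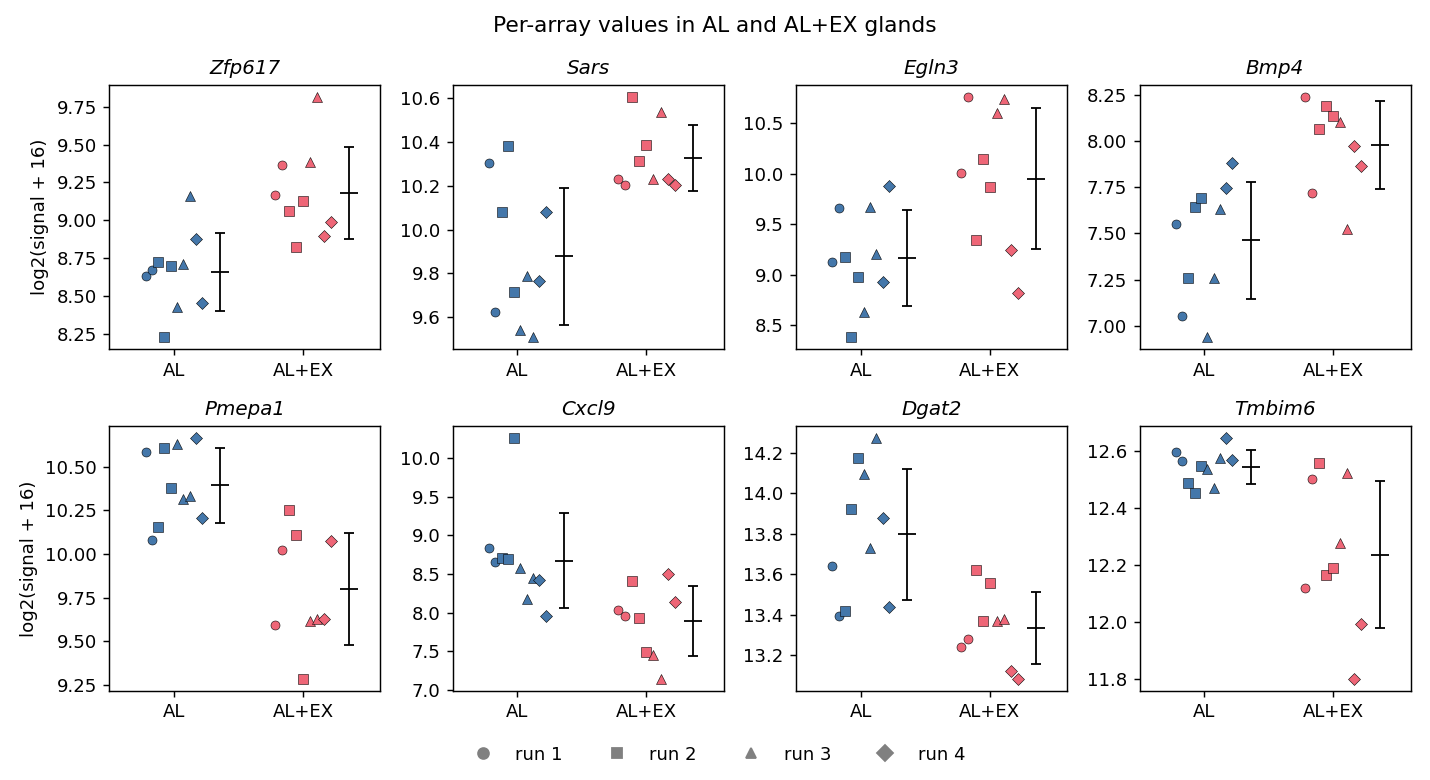
Values of 8 genes on each of the 10 AL (blue) and 9 AL+EX (red) arrays, as log2(signal + 16); marker shape gives the run of animal numbers, and the black bars are mean ± SD. Each gene has AL+EX arrays within the AL range or the reverse, although the means differ.

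The 10 genes of smallest p that were higher in AL+EX had adjusted p values of 0.445 to 0.540 in limma, so none passed. They were picked for that p, and their sizes are a description. Seryl-tRNA synthetase Sars, which charges serine onto its tRNA, ran from 712 to 1319 (median 862) in AL and from 1162 to 1541 (median 1187) in AL+EX. All 9 AL+EX arrays were above the AL median, and 2 of 10 AL arrays were above the AL+EX median. Its difference was 0.45 ± 0.11 (SE; 95% interval 0.22 to 0.67), or 1.36-fold. Egln3, a prolyl hydroxylase that marks hypoxia-inducible factors for destruction and is itself switched on by hypoxia, read 316 to 926 (median 553) in AL and 436 to 1719 (median 1011) in AL+EX. That made a difference of 0.79 ± 0.20 (0.39 to 1.18), or 1.72-fold, the largest among the 10. Runs 1, 2 and 3 differed by 0.989, 0.945 and 1.51, and run 4, whose 4 mice carry the highest animal numbers, by -0.37. With run as a block Egln3 passed in limma when AL replicate 10 (adjusted p 0.0354), AL+EX replicate 9 (0.0435) or the arrays high in B lymphocyte genes (0.0348) were left out, and not on all arrays (0.203). Both of these replicates are in run 4, and the arrays high in B lymphocyte genes include all of run 4. The zinc finger gene Zfp617 had the smallest p (0.52 ± 0.12; 284 to 555 (median 396) in AL, 438 to 884 (median 544) in AL+EX), and 9 of 9 AL+EX arrays stood above the AL median.

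Bone morphogenetic protein 4 (Bmp4), a TGF-β family growth factor, read 106 to 219 (median 177) in AL and 168 to 286 (median 251) in AL+EX, a difference of 0.51 ± 0.14. Wdr77, a subunit of the arginine methylosome, differed by 0.75 ± 0.21, and the DEAD-box helicase Ddx49 by 0.63 ± 0.16. In both, no AL array was above the AL+EX median. The endosomal GTPase Rab7b (0.66 ± 0.17), the clathrin adaptor subunit Ap1s2 (0.48 ± 0.13), the membrane-bending protein Bin1 (0.50 ± 0.14) and the actin-associated synaptopodin Synpo (0.56 ± 0.16) completed the 10. Bin1 shapes the T-tubules of muscle, and its lowest AL signals were on replicates 1 and 8, which have a high Gapdh ratio; without the 3 arrays of high ratio its difference was 0.25. Synpo and Rab7b each have 1 other probe set on this array, and it has the opposite sign. Of the 2 other Wdr77 probe sets, only 1 has the same sign.

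Of the 10 lowest by p, adjusted p was again 0.445 to 0.540 in limma. Pmepa1, a membrane protein induced by TGF-β that holds back its Smad signalling, read 1064 to 1606 (median 1293) in AL and 608 to 1204 (median 776) in AL+EX, a difference of -0.59 ± 0.15 (-0.90 to -0.29). None of the 9 AL+EX arrays reached the AL median, and the 2 other Pmepa1 probe sets had the same sign. The interferon-γ induced chemokine Cxcl9 read 233 to 1209 (median 376) in AL and 125 to 347 (median 233) in AL+EX, a difference of -0.78 ± 0.22, with AL replicate 5 far above the other AL arrays. Batf3, a transcription factor of cross-presenting dendritic cells, differed by -0.65 ± 0.18. The organic anion transporter Slc22a8 (-0.71 ± 0.18) was dim in both groups, at 90.6 to 172 (median 125) in AL and 31.1 to 110.3 (median 74.8) in AL+EX.

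Tmbim6 (Bax inhibitor 1), a protein of the endoplasmic reticulum membrane, was nearly constant in AL at 5599.9 to 6396 (median 6015) and ran from 3552 to 6016 (median 4653) in AL+EX, a difference of -0.31 ± 0.088. Edem1, which hands misfolded glycoproteins over for degradation, differed by -0.43 ± 0.12; its other probe set has the opposite sign, as has that of Slc22a8. The kinase Pak2 (-0.29 ± 0.077), the phosphatase 2A activator Ptpa (-0.45 ± 0.12), the fatty acid hydroxylase Cyp4v3 (-0.58 ± 0.15) and purine nucleoside phosphorylase Pnp (-0.36 ± 0.10) were the others; Pnp has a near-identical copy, so its probe set could read both.

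Most fat genes were below AL in the wheel group, none of them past the test. Of 17 adipocyte marker genes tested (20 listed), 16 had a negative difference, against 4968 of 9294 over all genes. The other 1, Acvr1c, had a positive difference (0.029 ± 0.15). The median was -0.255, against -0.015 over all genes. None was called, and 2 of the 17 had an unadjusted p below 0.05, the fatty acid transporter Cd36 (-0.42 ± 0.19) and the adipogenic factor Cebpa (-0.39 ± 0.18; singled out after its value was seen). The summed level of the list, as a mean of log2 values, was 12.03 to 12.79 (mean 12.33 ± 0.25, SD, n = 10) in AL and 11.70 to 12.42 (mean 12.05 ± 0.23, n = 9) in AL+EX, so the ranges overlap. Its median by run was -0.224, -0.0216, -0.535 and 0.0182 for runs 1 to 4, that is, clearly negative in runs 1 and 3 and near 0 in runs 2 and 4. Under calorie restriction the wheel median of these genes was -0.031.

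Leptin and adiponectin, hormones of the fat cell, were below AL on average, and neither passed. Leptin (Lep), the satiety hormone that tracks fat mass, read 203 to 1613 (median 979) in AL and 77.2 to 997 (median 398) in AL+EX, and its difference was -0.98 ± 0.54 (95% interval -2.06 to 0.10, adjusted p 0.754, limma). By run the Lep difference was -2.18, 0.36, -3.12 and 0.80, so the sign was not shared, and over all runs the difference was -0.62 without the arrays of high Gapdh ratio. Medians of Lep in CR and CR+EX were 195 and 172, and AL+EX overlapped both AL and these groups. Adipoq had a difference of -0.28 ± 0.15, and caveolin 1 (Cav1), the coat protein of fat cell caveolae, of -0.41 ± 0.13, with 4102 to 10218 (median 8088) in AL and 3989.8 to 6293 (median 5389) in AL+EX. The fat expansion markers Mest and Sfrp5 differed by -0.032 ± 0.17 and 0.35 ± 0.29. In the list of adipokines and fat expansion genes, 10 of 14 tested were lower and 4 higher (Sfrp5, Sfrp2, Agt and Nampt), with a median of -0.262. That median was -0.0441 with the mean of probe sets, -0.072 with the skeletal muscle mean as a covariate and -0.15 without AL+EX replicate 7, and in run 4 it was 0.345.

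Lipid synthesis genes had negative differences in most members. For fatty acid and triglyceride synthesis 17 of 20 tested were lower (22 listed) and 3 higher (Acaca, Fads2 and Elovl3), with a median of -0.173. By run that median was -0.178, -0.208, -0.463 and 0.111, of opposite sign in run 4. Among the 20 genes, 2 had an unadjusted p below 0.05. Those were Dgat2, which adds the last acyl chain of triglyceride, and ATP citrate lyase Acly, which makes cytosolic acetyl-CoA (-0.41 ± 0.19; outside the rule for named genes). Dgat2 read 10749.6 to 19779 (median 14319) in AL and 8673 to 12569.5 (median 10563) in AL+EX; all 10 AL arrays were above the AL+EX median, its difference was -0.46 ± 0.15 (-0.77 to -0.16), and it was negative in all 4 runs. Fatty acid synthase Fasn differed by -0.26 ± 0.18 and the desaturase Scd1 by -0.085 ± 0.24. Of 17 cholesterol synthesis genes tested 16 were lower and 1, Fdps, higher (0.07 ± 0.25), with a median of -0.122. That median was -0.139, -0.0178, -0.423 and 0.0725 by run, again of opposite sign in run 4. Hmgcs1, which makes HMG-CoA, had a difference of -0.39 ± 0.16, and of -0.16 without the arrays of high Gapdh ratio.

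Genes of fat breakdown were also below AL in most members. Of 14 genes for lipolysis and lipid droplets tested (19 listed), 10 were lower and 4 higher (Plin3, Cidea, Abhd5 and Plin5), with a median of -0.216. By run that median was -0.0864, -0.0406, -0.302 and -0.303. Monoacylglycerol lipase Mgll, which frees the last fatty acid, read 4425 to 9915 (median 7125) in AL and 1743 to 8565 (median 5039) in AL+EX. Its difference was -0.64 ± 0.21, with 1 of 9 AL+EX arrays above the AL median. Of its 3 other probe sets, 2 had the same sign. The 20 fatty acid oxidation genes were near the background, with 6 higher, 14 lower and a median of -0.0394; Ucp3 had the smallest p (0.26 ± 0.13), and Pdk4, which blocks pyruvate entry when fat is burned, differed by 0.089 ± 0.17.

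**Figure D2:**
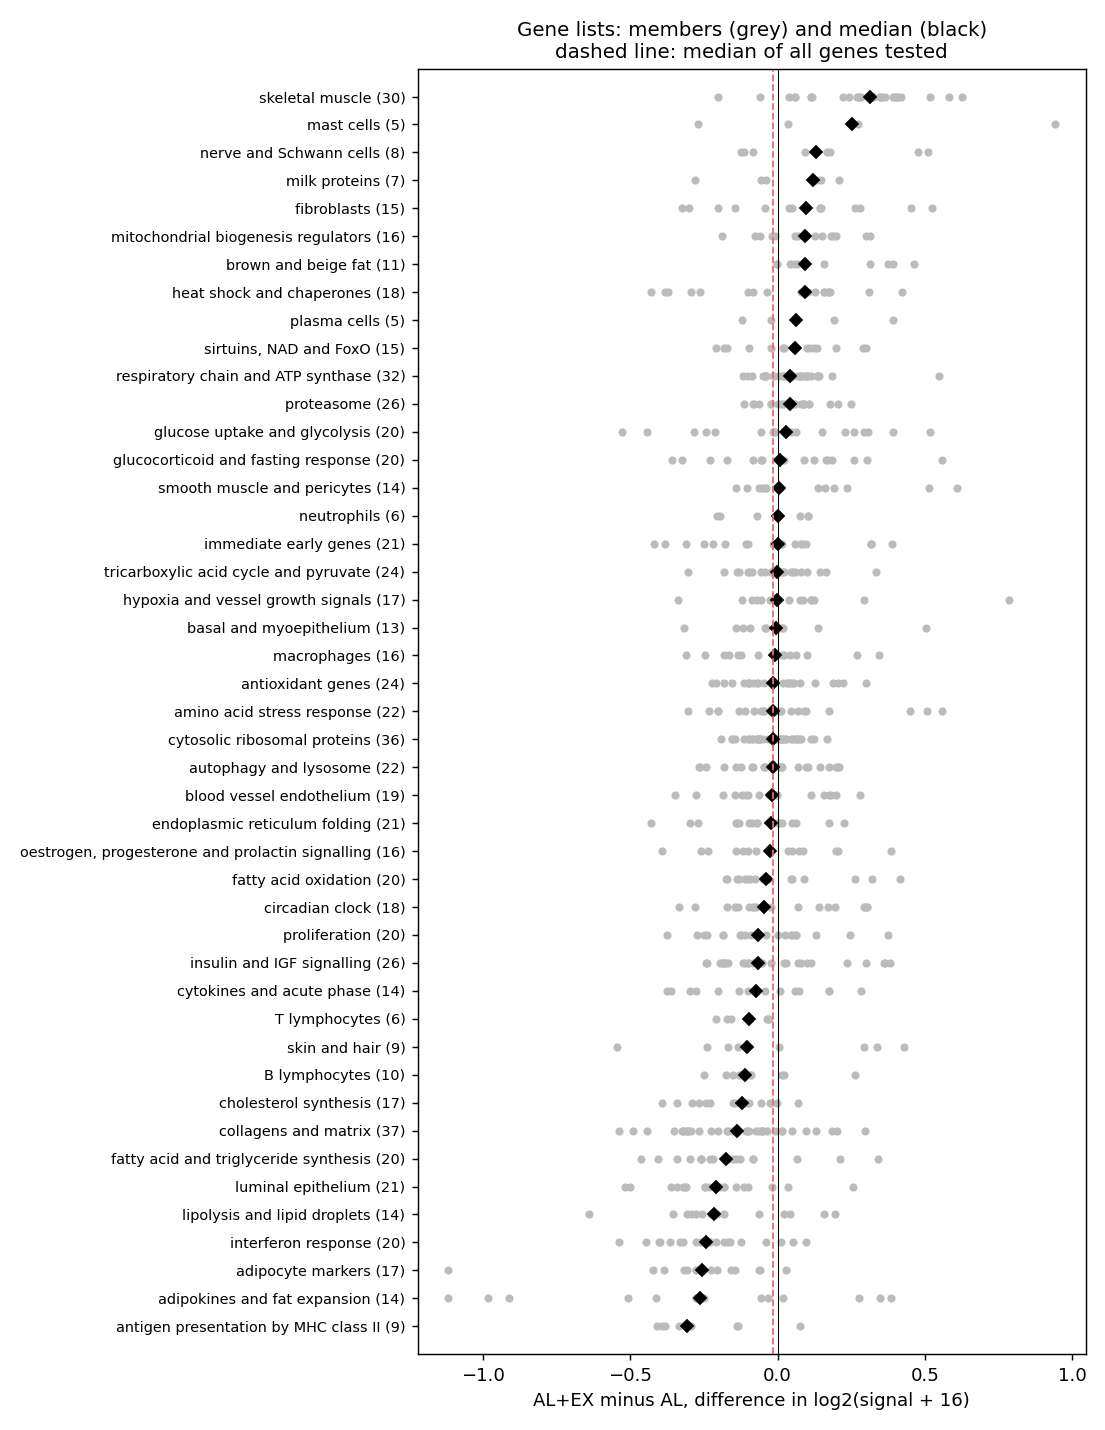
AL+EX minus AL differences of the tested members (grey points) and their median (black diamonds) for the 45 gene lists with 5 or more tested members, whose number is in brackets; the dashed line is the median of all 9294 genes. Skeletal muscle has the highest median, 0.312, and MHC class II the lowest, -0.308, which is -0.123 without AL+EX replicate 7.

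Skeletal muscle genes had the highest median of the lists with 5 or more members tested, and more muscle in the dissected gland and more RNA of these genes in muscle cannot be told apart. Of 30 muscle genes tested (35 listed), 28 were higher and 2 lower in AL+EX (Myh7 and Car3, the second also expressed in fat), with a median of 0.312. None was called. At an unadjusted p below 0.05 in limma 4 were higher, namely Tpm2, Mb, Pgam2 and Myh2, against 2.97% of all genes. With run as a block 12 of the 30 were higher at that level, against 429 of 9294 over all genes. Tropomyosin Tpm2 of the thin filament read 2870.1 to 7330.0 (median 6055) in AL and 5280.3 to 10300.0 (median 8046) in AL+EX, a difference of 0.39 ± 0.15. Myoglobin Mb, the oxygen store of muscle, differed by 0.58 ± 0.26, the glycolytic Pgam2 by 0.52 ± 0.24 and the fast oxidative myosin Myh2 by 0.63 ± 0.30; these 3 were named after their values were seen. Creatine kinase Ckm differed by 0.33 ± 0.20 (0.074 without the arrays of high Gapdh ratio) and Acta1 by 0.11 ± 0.24, with Acta1 medians of 29048 in AL and 20807 in AL+EX, which are in the opposite order to the means.

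The size of the muscle difference rested in part on AL replicate 1. The mean of the list ran from 11.65 to 13.56 in AL and from 12.61 to 13.73 in AL+EX, and AL replicate 1 alone stood at 11.65, with the next AL array at 12.73. Without it the median of the 30 genes was 0.169, and without the 3 AL arrays of high Gapdh ratio it was 0.148. By run the median was 0.446, 0.0548, 0.6 and 0.204, and in calorie-restricted mice the wheel median was -0.0526. With the mean of the muscle list as a covariate the luminal epithelial median below moved from -0.207 to 0.031. In that fit the medians were -0.222 for adipocyte markers, -0.15 for fatty acid and triglyceride synthesis and -0.101 for cholesterol synthesis. For lipolysis, interferon response and matrix genes they were -0.192, -0.252 and -0.072. These kept their sign, while brown and beige fat went from 0.0933 to -0.0043 and basal genes from -0.00478 to 0.0673. The covariate itself differed between the groups (mean 12.91 in AL, 13.18 in AL+EX), and whether muscle content lies behind any of these differences was not tested.

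**Figure D3:**
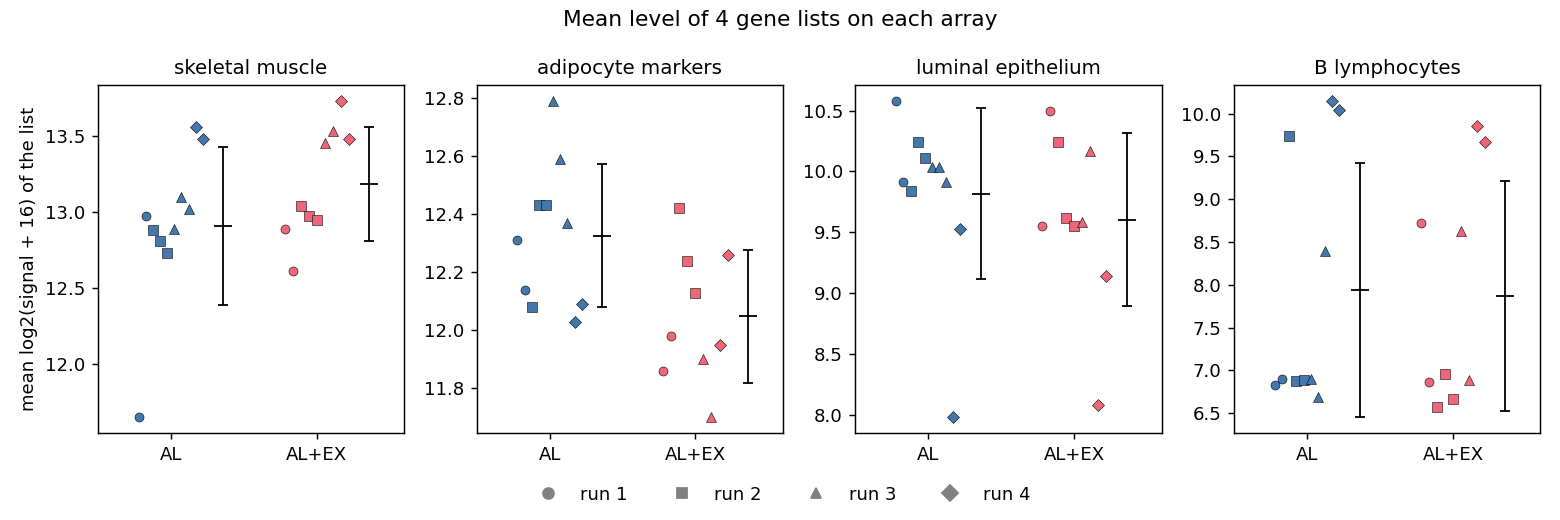
Mean log2(signal + 16) of 4 gene lists on each AL (blue) and AL+EX (red) array, with the run of animal numbers as marker shape and mean ± SD as black bars. Muscle and adipocyte levels shift in opposite directions but overlap between the groups, and B lymphocyte genes fall into low and high arrays in both.

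Of the energy metabolism lists, brown and beige fat and mitochondrial biogenesis regulators (0.0945) had medians near the upper quartile of all genes, 0.098. The medians of the others were closer to that of all genes. Ucp1, which makes brown fat burn fuel as heat, read 1211 to 26029.6 (median 12292) in AL and 5634 to 26323 (median 9079.8) in AL+EX (0.37 ± 0.44, 95% interval -0.52 to 1.27). Of 11 brown and beige fat genes 9 were higher, with a median of 0.0933, and the exceptions were Ebf2 (-0.0027) and Cox8b (-0.00026). The median was -0.0043 with the skeletal muscle mean as a covariate, 0.0421 without AL replicate 7 and 0.206 without AL replicate 9, and it was 0.387, -0.0687, 0.319 and -0.0326 by run. Cox7a1, the heart and muscle form of a respiratory chain subunit, differed by 0.46 ± 0.25. Ppargc1a, the coactivator that drives mitochondrial biogenesis and is known to respond to exercise in muscle, read 190.2 to 450.5 (median 271) in AL and 252 to 549 (median 359) in AL+EX (0.31 ± 0.19, adjusted p 0.79, limma), and all 4 of its other probe sets had the same sign. The 32 respiratory chain and ATP synthase genes had a median of 0.0422 with 22 higher; Atp5g1, a ring subunit of ATP synthase, differed by 0.55 ± 0.20, and by 0.31 without the 3 AL arrays of high Gapdh ratio.

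Glycolysis genes lay on both sides of AL. Of 20 genes tested 11 were higher and 9 lower (median 0.0298), and 6 had an unadjusted p below 0.05. The liver-type phosphofructokinase Pfkl (-0.53 ± 0.17), the brain-type mutase Pgam1 (-0.28 ± 0.14) and Pfkfb3 (-0.44 ± 0.14), which makes the activator of phosphofructokinase, were lower. The muscle-type Pfkm (0.39 ± 0.17) and Pgam2 (0.52 ± 0.24) and the triose phosphate isomerase Tpi1 (0.26 ± 0.10) were higher. All of them but Pfkfb3 were named after their values were seen. Pfkfb3 read 2798 to 5031 (median 3569) in AL and 1726 to 3369 (median 2646) in AL+EX, with all 10 AL arrays above the AL+EX median; its other probe set has the opposite sign. The mitochondrial isocitrate dehydrogenase Idh2 (0.33 ± 0.15) and the deacetylase Sirt3 (0.30 ± 0.14) had the smallest p in their lists, whose medians were -0.00191 and 0.0945.

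Luminal epithelial genes were lower in 19 of 21 tested (26 listed), with a median of -0.207; Tspan8 and Elf5 were the exceptions. The epithelial transcription factor Elf3 was the 1 member with an unadjusted p below 0.05 (-0.23 ± 0.11; 289.7 to 492.8 (median 417) in AL, 290.0 to 443 (median 327) in AL+EX). The list's mean level ran from 7.98 to 10.58 in AL and from 8.09 to 10.50 in AL+EX. The median over all runs moved with the lowest array of each group, to -0.434 without AL replicate 9 and -0.078 without AL+EX replicate 8. By run it was -0.261, -0.253, -0.137 and -0.203, negative in each. Krt18 differed by -0.14 ± 0.30, and Krt14 of the basal layer by -0.00031 ± 0.42. The 13 basal genes tested had a median of -0.00478, with 5 higher, led by Krt5 (0.50 ± 0.28). Milk protein genes were dim: beta-casein Csn2 read 29 to 179.6 (median 118) in AL and 43.1 to 198 (median 121) in AL+EX (0.13 ± 0.23), and 4 of 7 tested were higher. Mfge8, the milk fat globule protein that also bridges dying cells to phagocytes, differed by -0.28 ± 0.14.

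Hormone and growth factor genes were close to the background. The 16 oestrogen, progesterone and prolactin signalling genes had a median of -0.024, none with an unadjusted p below 0.05; the receptor Fgfr2, needed for duct outgrowth, had the smallest p in it (-0.39 ± 0.25). Of 26 insulin and IGF signalling genes 11 were higher and 15 lower. Igf1, the growth factor that growth hormone induces, differed by -0.12 ± 0.20, and Igf2 by 0.38 ± 0.13, with 216 to 466.5 (median 328) in AL and 289 to 718 (median 403) in AL+EX, 8 of 9 above the AL median.

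Immune genes were lower in most interferon and antigen presentation members. Of 20 interferon response genes tested (27 listed), 17 were lower and 3 higher (Stat2, Irf1 and Bst2), with a median of -0.241; 2 had an unadjusted p below 0.05, Usp18, which removes the interferon-induced modifier ISG15 (-0.37 ± 0.14), and the RNA sensor Ifih1 (-0.40 ± 0.18; named after its value was seen). Usp18 read 257 to 497 (median 361) in AL and 219 to 358 (median 276) in AL+EX, and no AL+EX array was above the AL median. By run the list's median was -0.196, -0.507, -0.309 and 0.164, of opposite sign in run 4, and without AL replicate 5, the array highest in Cxcl9, it was -0.115. MHC class II genes had 8 of 9 lower and a median of -0.308, with Ctss the exception; their transactivator Ciita differed by -0.41 ± 0.28. By run the class II median was 0.375, -0.849, -0.432 and 0.084, so its sign was not shared, and it was -0.123 without AL+EX replicate 7 and -0.495 without AL+EX replicate 8.

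Lymphocyte genes split the arrays of both groups into low and high. The mean of 10 B lymphocyte genes ran from 6.69 to 10.15 in AL and from 6.57 to 9.86 in AL+EX, with no array between 6.95 and 8.39. The B cell receptor gene Cd79b read 50.5 to 1852 (median 100.1) in AL and 24.2 to 1610.5 (median 78.9) in AL+EX (-0.17 ± 0.83). By run the B lymphocyte median was 0.926, -1.1, 0.411 and -0.43. All 6 T lymphocyte genes tested had negative differences, from -0.21 to -0.030. Both signs turned without AL replicate 9, to medians of 0.126 for the B and 0.0963 for the T lymphocyte genes. The plasma cell gene Jchain differed by 0.39 ± 0.52, and the 16 macrophage genes had a median of -0.00868, which was -0.298 without the arrays of high Gapdh ratio and -0.141 to 0.151 when 1 array was left out (AL replicate 8 and AL+EX replicate 7). Mcpt4, a protease of connective tissue mast cells, read 17.2 to 368 (median 34.5) in AL and 17 to 333 (median 153) in AL+EX (0.94 ± 0.45), and 4 of 5 mast cell genes were higher, Kit being the exception; their median of 0.252 was 0.131 without AL+EX replicate 4 and 0.411 without AL+EX replicate 6. Many Mcpt4 values were dim.

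Stress, clock and activity genes completed the comparison. In the heat shock list 3 chaperones had an unadjusted p below 0.05, all lower: Dnajb1 (-0.38 ± 0.12), Dnaja1 (-0.37 ± 0.14) and Hsp90aa1 (-0.26 ± 0.11), the last 2 named after their values were seen, while the list as a whole had 10 of 18 higher. The heat-inducible Hspa1b, nearly identical to Hspa1a, differed by -0.43 ± 0.32. In endoplasmic reticulum folding 14 of 21 were lower, with Edem1, Hspa5 (-0.27 ± 0.12) and Creld2 (-0.30 ± 0.14) at an unadjusted p below 0.05. The 22 amino acid stress genes held Sars and Chac1 (0.51 ± 0.22) higher and Wars (-0.30 ± 0.12) lower at that level, with a median of -0.0148. Hspa5, Creld2, Chac1 and Wars were likewise named after their values were seen.

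Clock genes had no call, and their values overlapped widely between AL and AL+EX. The repressor Nr1d1 read 620.4 to 1234 (median 842) in AL and 379.9 to 1009 (median 762) in AL+EX (-0.28 ± 0.32), against medians of 260.1 in CR and 176 in CR+EX. The output factor Dbp (-0.15 ± 0.25), its opponent Nfil3 (0.20 ± 0.19) and the period gene Per2 (0.30 ± 0.25) all had intervals that include 0. Csnk1e, a kinase of the period proteins, had the smallest p of the 18 tested (0.31 ± 0.11); its other probe set has the opposite sign. Immediate early genes, which rise within minutes of a stimulus, were split 11 higher and 10 lower: Fos -0.38 ± 0.36, Egr1 -0.42 ± 0.23 and Nr4a1 0.014 ± 0.27, with Fos at 266 to 1150.1 (median 522) in AL and 50.3 to 1277 (median 442) in AL+EX. Ier3 (0.32 ± 0.12) and Myc (0.32 ± 0.12; named after its value was seen) had an unadjusted p below 0.05. Vegfa, the main signal for vessel growth, differed by -0.0056 ± 0.13 (-0.27 to 0.25), and the glucocorticoid target Sgk1 by 0.30 ± 0.16.

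Matrix genes were lower in 29 of 37 tested (39 listed), with a median of -0.137. The basement membrane collagen Col4a1 was the 1 with an unadjusted p below 0.05 (-0.32 ± 0.13; 2111 to 4327 (median 3097) in AL, 1654 to 3399 (median 2324) in AL+EX). By run the list's median was -0.161, -0.104, -0.696 and 0.448, so its sign was not shared, and the median was -0.0359 without AL+EX replicate 6. Among 19 blood vessel genes 13 were lower, with the tight junction gene Cldn5 at -0.35 ± 0.17; the 14 smooth muscle and pericyte genes had a median of 0.00591, with desmin Des (0.61 ± 0.24), which skeletal muscle also makes, having the smallest p. Another Des probe set has the opposite sign, and the Des difference was 0.13 without the 3 AL arrays of high Gapdh ratio.

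Whether the wheel difference itself depended on diet was asked with the calorie-restricted mice, whose 18 arrays share none with the 19 above. In CR+EX against CR 0 of 9294 genes (0%) passed in limma, with a lowest adjusted p of 1, and 83 (0.893%) had an unadjusted p below 0.05 (46 higher, 37 lower). The difference between the wheel effects passed for 0 of 9294 genes (0%), with a lowest adjusted p of 0.279. At an unadjusted p below 0.05 in limma there were 295 of 9294 genes, against 600 for AL+EX minus AL. With run as a block these counts were 650 and 1004. Sars had the smallest p: its difference was 0.45 ± 0.11 with free feeding and -0.30 ± 0.11 under restriction, and the difference of these was 0.75 ± 0.16 (SE; adjusted p 0.279, limma). With run as a random block that value was 0.76 ± 0.14 with an adjusted p of 0.0484, the 1 call in that fit; with a fixed block the adjusted p was 0.0745. Sars medians were 862 in AL, 1187 in AL+EX, 1177 in CR and 1021 in CR+EX, so AL was the lowest of the 4. Cyp8b1, which sets the ratio of bile acids in liver and was dim here, differed by 0.57 ± 0.18 and -0.45 ± 0.18 under the 2 diets, and 2610524H06Rik by -0.51 ± 0.15 and 0.22 ± 0.15. Among the genes of smallest p, Egln3 had 0.069 ± 0.20 under restriction and Pmepa1 -0.0039 ± 0.15. Dgat2, of smallest p only within its list, had -0.033 ± 0.16. For all 3 the adjusted p of the difference between diets was 0.9995 in limma.

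**Figure D4:**
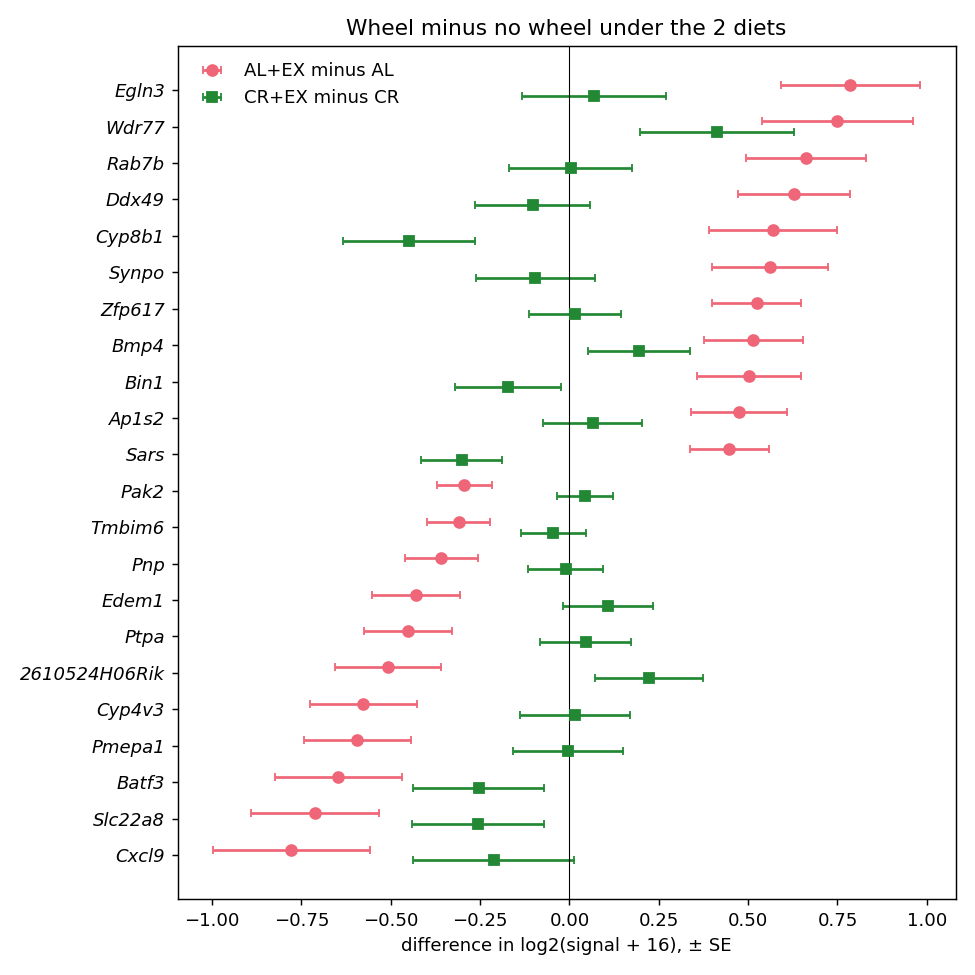
Wheel minus no wheel differences (points, ± SE) in log2(signal + 16) for the 20 genes of smallest p with free feeding and the 3 of smallest p for the difference between diets, 22 genes in all, with free feeding (red circles) and under calorie restriction (green squares). The red values were chosen for their small p; 10 of the 22 have opposite signs under the 2 diets.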

How the data were processed

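Each of the 37 arrays gave 1 deposited intensity per probe set, made by the authors with GCOS version 1, per the submitters' processing notes; which signal algorithm was used is not given in the sources used here. All deposited signals were already scaled, with a mean after trimming 2% at both ends of 500.16 to 500.23. The number of arrays limits the precision, and no read depth applies. Here 20380 of 22690 probe sets named 1 gene (691 named several, 1555 none, 64 were controls; none of these was used). Signals were taken as log2(signal + 16), the brightest probe set stood for its gene, and the dimmest 25% of 12393 genes were left out, which left 9294. A group-means model was fitted to all 37 arrays with limma 3.58.1 in R 4.3.3 (variance trend, Benjamini-Hochberg adjustment over all 9294 genes, threshold 0.05, 33 residual degrees of freedom), with the run of animal numbers as a block in a second fit. The fit was tested on simulated data. Named genes are the 10 of smallest p in each direction, the member of smallest p in every list, the 3 of smallest p for the difference between diets, and 28 genes named in every case, of which Esr1 and Pgr were too dim. The comparison, the 47 gene lists and these rules were chosen with earlier results of these data known. Alternatives changed the offset, the filter, the scaling, the probe set rule, the model and the arrays.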

Additional observations from a re-analysis of the deposited data

Results flagged for a closer look

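For the 91 named genes and the means of 6 lists, 17 sets of arrays held 1 array apart from the rest by Dixon's criterion, 10 in AL and 7 in AL+EX, of 194 looked at; chance alone sets apart about 1 in 20. Values are log2(signal + 16), with the nearest other array of the group after each. AL replicate 9 was low in Krt18 (9.94 against 11.82), Krt14 (4.99 against 7.38), Fgfr2 (8.88 against 10.04) and the luminal epithelial mean (7.98 against 9.53). AL+EX replicate 8, from the same run of animal numbers, was low in Krt18 (9.90 against 11.55), Krt14 (4.81 against 6.96) and Pfkfb3 (10.77 against 11.32). AL replicate 1 was low in Tpm2 (11.49 against 12.45) and in the skeletal muscle mean (11.65 against 12.73).

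AL replicate 5 was high in Cxcl9 (10.26 against 8.84) and low in Csn2 (5.49 against 6.80). AL+EX replicate 7 was low in Flt4 (5.63 against 7.60) and Csn2 (5.89 against 6.84) and high in Igf2 (9.52 against 8.87). The remaining arrays were apart in 1 gene each: AL replicate 8 was high in Sgk1 (11.87 against 11.16), AL replicate 4 high in Sprr1a (10.46 against 9.07), and AL+EX replicate 9 low in Batf3 (6.04 against 6.75). No gene differed between the diets in its wheel difference by the adjusted test in limma.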

How the results depend on the processing

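For AL+EX minus AL, 0 genes passed in limma under each of the 35 alternatives that changed 1 setting of the main fit. Of these, 19 left out 1 array, and the others include run as a fixed and as a random block. The alternatives were then repeated with run as a fixed block. With run as a fixed block 3 genes passed when arrays rich in B lymphocyte RNA were left out: Cyb5r3 (-1.02 ± 0.17), Egln3 (1.21 ± 0.21) and Pm20d1 (-0.92 ± 0.16), with adjusted p of 0.0348, 0.0348 and 0.0394. The arrays left out include all of run 4. In that blocked fit, leaving out 1 array gave 0 to 2 calls: Egln3 without AL replicate 10, and Egln3 and Sln (1.02 ± 0.20, the muscle calcium pump inhibitor sarcolipin) without AL+EX replicate 9. For the difference between diets, run as a random block gave 1 call, Sars. No other alternative gave a call. No paired analysis was possible because the labels number the mice singly and share no number between groups; the run block stands in for it.

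Of the 91 named genes, 76 kept their sign under all alternatives, among them all 20 of smallest p. The other 15 lay near 0 or varied widely, none of them past the threshold on either side. Offset 64 gave 0.029 for Krt14. Median centring gave -0.016 and quantile normalization -0.019 for Nr4a1. The mean of probe sets gave 0.0021 for Scd1 and 0.027 for Vegfa. With run as a fixed block the values were 0.0080 for Vegfa and 0.011 for Krt14, and as a random block 0.0051 and 0.0078. Leaving out arrays rich in B lymphocyte RNA, they were -0.10 for Jchain, 0.19 for Vegfa, 0.088 for Fos, -0.097 for Acta1, 0.15 for Krt14 and -0.036 for Csn2. Without the arrays of high Gapdh ratio they were 0.13 for Vegfa, -0.42 for Nr4a1, -0.015 for Acta1 and 0.078 for Krt14. With the skeletal muscle mean as a covariate they were -0.21 for Fcer2a, 0.0095 for Igf1, -0.056 for Pdk4, -0.0043 for Cidea, 0.049 for Vegfa, -0.18 for Nr4a1, 0.086 for Krt18 and 0.42 for Krt14. Array weights gave 0.11 for Vegfa, -0.18 for Acta1 and 0.20 for Krt14. Leaving out 1 array gave ranges that cross 0 for Acta1 (-0.027 to 0.21), Cd79b (-0.53 to 0.14), Csn2 (-0.031 to 0.29), Fcer2a (-0.019 to 0.51), Krt14 (-0.33 to 0.39), Krt18 (-0.37 to 0.097), Mest (-0.093 to 0.055), Nr4a1 (-0.15 to 0.16), Scd1 (-0.24 to 0.024) and Vegfa (-0.059 to 0.069). The cause was not tested. List medians under the alternatives were added after seeing the data. Apart from the fits that left out 1 array, they ran from 0.148 to 0.336 for skeletal muscle. For adipocyte markers they ran from -0.322 to -0.194, and for interferon response from -0.336 to -0.204. Leaving out 1 array, the ranges were 0.169 to 0.38, -0.288 to -0.191 and -0.308 to -0.115, in the same order. Dim probe sets such as Csn2 and Krt14 limit what their differences can show.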

Other observations

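Basic cell machinery lay close to the median of all genes. The 36 cytosolic ribosomal protein genes tested had 16 higher and 20 lower in AL+EX, a median of -0.0151 and a range of -0.19 to 0.17; Rpl19 had the smallest p (-0.19 ± 0.11). The 26 proteasome genes had 20 higher, with a median of 0.0421 and Psmd12 at 0.25 ± 0.13. The 22 autophagy and lysosome genes were split 11 and 11, with the protease cathepsin B (Ctsb) at -0.24 ± 0.11, and 24 antioxidant genes 12 and 12, with the quinone reductase Nqo1 at 0.30 ± 0.14. Of 20 proliferation genes 9 were higher and 11 lower, with the mitotic kinase Aurka at -0.25 ± 0.14.

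Minor cell types gave small lists. The 8 nerve and Schwann cell genes had 5 higher, a median of 0.131 and the myelin gene Mbp at 0.51 ± 0.27; without AL+EX replicate 9 that median was 0.0248. Of 9 skin and hair genes 4 were higher, and the cornified envelope gene Sprr1a read 269 to 1396 (median 315) in AL and 168 to 363 (median 262) in AL+EX (-0.54 ± 0.20). The 6 neutrophil genes had a median of 0.00304, with Mpo at -0.20 ± 0.14, and 15 fibroblast genes one of 0.0977, with gelsolin (Gsn) at -0.30 ± 0.20. The fibroblast median was -0.28, -0.0015, -0.57 and 0.822 by run, -0.156 without arrays rich in B lymphocyte RNA and -0.0014 without AL replicate 10. The macrophage galectin Lgals3 differed by -0.31 ± 0.21 and the acute phase haptoglobin Hp by -0.37 ± 0.19. In the 4 lymphatic genes 1, the receptor Flt4, was lower (-0.38 ± 0.23), and of 3 red blood cell genes Bpgm had the smallest p (0.40 ± 0.25). The 20 glucocorticoid and fasting response genes had a median of 0.00698, and the 15 sirtuin, NAD and FoxO genes one of 0.0587. None of these genes passed the test in limma.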
